A study of Rattus norvegicus with 12 samples.

Results

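Transcripts of ATF4 and of genes that bring amino acids into the cell or make them were examined in rat hearts that overexpress vascular endothelial growth factor-B (VEGF-B). The group was chosen by symbol and holds 10 genes, namely the transcription factors Atf4 and Ddit3, the enzymes Asns, Psat1, Phgdh and Shmt2, and the transporter genes Slc1a5, Slc3a2, Slc7a5 and Slc7a1. Of the 22517 probes read on the array, 10 carried one of these symbols. They covered 9 of the 10 genes, and no probe was named Psat1. Left ventricles came from 12 male Wistar rats aged 2 months, of which 6 carried a VEGF-B transgene (VEGF-B TG) and 6 were wildtype littermates (WT). The transgene was driven by the cardiomyocyte-specific αMHC promoter on an outbred HsdBrl:WH Wistar background, so its product is made by cardiomyocytes and the animals were not genetically identical. The labels give no other treatment for either group. Total RNA of each ventricle was labelled and hybridized to its own Illumina RatRef-12 BeadChip array, and nothing in the sources used here says how the arrays were spread over chips or scans.

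ATF4 is the main transcription factor of the integrated stress response. When kinases such as PERK or GCN2 phosphorylate the initiation factor eIF2, most translation slows while the ATF4 message is translated more, and ATF4 protein then binds promoters together with C/EBP family partners. Its known targets include amino acid transporters, enzymes of serine, asparagine and proline synthesis, aminoacyl-tRNA synthetases, and the genes Ddit3, Atf3, Chac1 and Trib3. Because ATF4 is controlled largely at translation, the level of its transcript does not measure its activity, and an array reads transcripts only.

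In the whole series, 9054 probes were detected on at least 6 of the 12 arrays and were tested (limma, Benjamini-Hochberg adjusted p under 0.05, which is the meaning of "called" throughout). All differences are log2 values, TG minus WT, with the standard error (SE) of 6 hearts against 6, and levels are log2 background-corrected, quantile-normalized intensities, which are not compared between probes. Between 8820 and 9655 probes were detected per TG array and between 8452 and 9251 per WT array. WT 1, WT 4 and WT 6 (8618, 8452 and 8535) lay below every TG array. The part of this in probes detected only in TG hearts was not tested. Precision is limited by the number of hearts. The rat Vegfb probe was lower in TG hearts by a difference of -1.04 (SE 0.58, adjusted p = 0.227), with values of 5.99 to 8.58 in TG and 6.42 to 10.10 in WT hearts. Whether it reads the transgene is not given in the sources used here, so it does not check the labels. Cardiomyocyte markers had a summed normalized intensity of 165952 to 175958 in TG and 161464 to 176873 in WT hearts, and 2 of the 10 tested genes were lower. Such a sum is set mostly by its brightest probes, so similar sums do not show an unchanged share of cardiomyocytes. Of tested genes of other cells, 7 of 11 endothelial, 7 of 8 pericyte and smooth muscle, 4 of 4 macrophage and leukocyte and 7 of 8 proliferation markers were higher in TG hearts. Over all tested genes, 12.5% were called higher and 10.9% lower. Among the called markers, Rgs5 was detected in 6 TG and 1 WT hearts and Tpx2 in 6 and 3. Both thus met the filter through the TG hearts. Cdk1, Ccnb2 and Mcam were detected in 6 TG and 4 WT hearts. The eighth pericyte and smooth muscle marker, Tagln, was lower (-0.49, SE 0.11, adjusted p = 0.00448). The endothelial sum was 16697 to 20521 in TG against 11354.6 to 13452.2 in WT hearts, although the endothelial marker Robo4 was detected on no array. For pericyte and smooth muscle markers, of which Cnn1 was detected on no array, it was 6401 to 7748 against 4810 to 5447. For macrophage and leukocyte markers it was 1688 to 2714 against 1247 to 1647, and for proliferation markers, with Ccnb1 detected on no array, 3756 to 4618 against 2706 to 3404. Fibroblast markers were 0 higher and 1 lower of 9, and erythroid markers 0 of 4. Their part in the results below was not tested, and in bulk ventricle a change in the number of cells of a type and a change in RNA per cell cannot be told apart.

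Among the 10 genes, the transcription factors and 2 of the transporter genes rose in VEGF-B TG hearts. Slc1a5 rose by 0.76, Ddit3 by 0.45, Slc3a2 by 0.40 and Atf4 by 0.30, while Shmt2 was not called (0.04). The order of Slc1a5 and Ddit3 turned without background correction (0.38 and 0.42) and with the deposited log2 table (0.39 and 0.42). Another 5 probes, those of Phgdh, Asns, Slc7a5, Slc7a1 and a second one of Slc1a5, were too dim to be tested. In numbers, 4 of 5 tested genes were called higher and 0 lower, against 11.6% of all tested probes called higher and 10.3% called lower. Each of the 5 was detected on all 12 arrays. Their median difference was 0.40, beside -0.01 over all tested probes. The group was chosen with earlier results of these data known, so these contrasts describe it and do not test it.

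**Figure D1:**
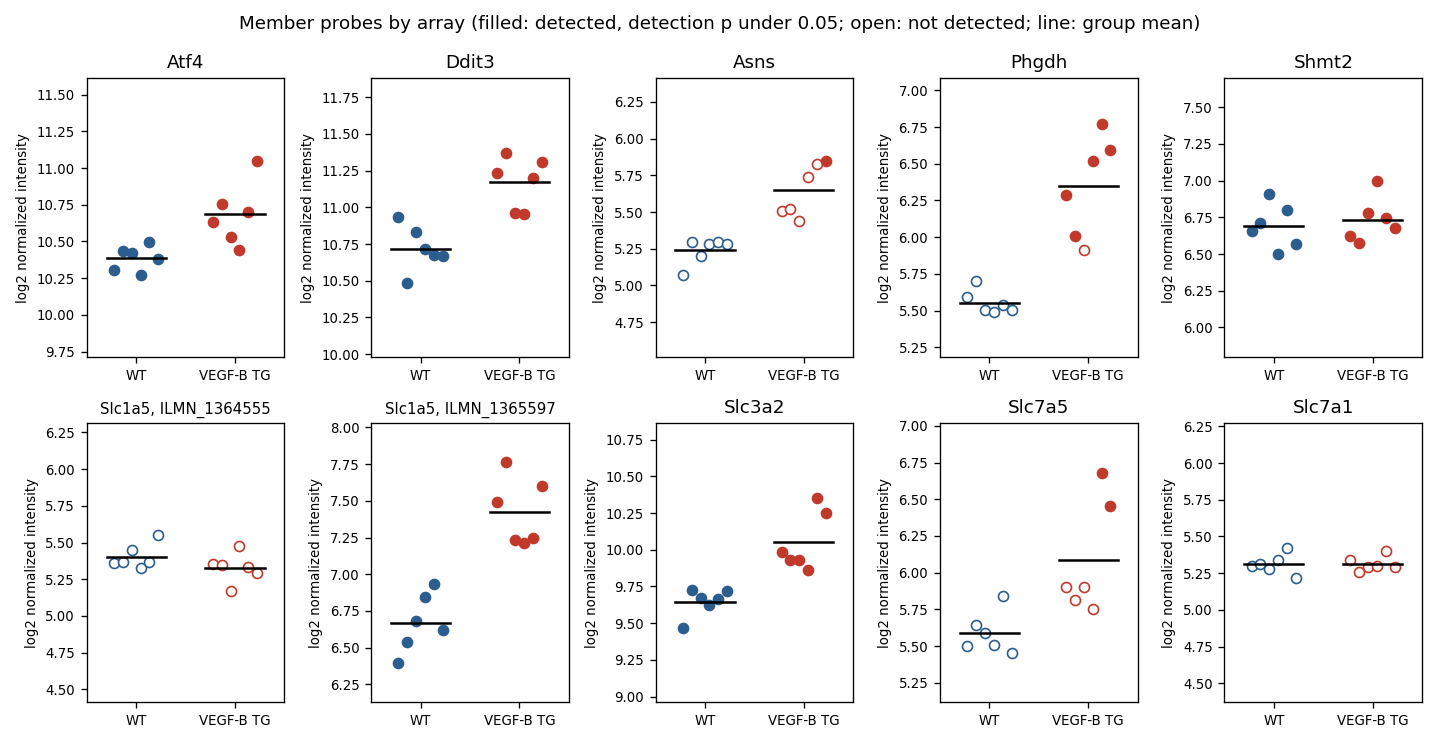
Log2 normalized intensity of the 10 probes of the group on each array, WT on the left and VEGF-B TG on the right of each panel, with filled points for arrays on which the probe was detected, open points where it was not, and a line at the group mean. The panels span the same log2 range but differ in level, and the TG values lie above all WT values for Ddit3, Slc3a2, the bright Slc1a5 probe (ILMN_1365597), Phgdh and Asns.

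Atf4 (ILMN_1375100) had a lowest, median and highest value of 10.44, 10.67 and 11.05 in TG hearts. In WT hearts these were 10.27, 10.40 and 10.50. Of the 6 TG values, 5, all but that of TG 4, lay above every WT value, so the groups overlapped slightly, and TG 6 stood highest. The difference was 0.30 (SE 0.09, adjusted p = 0.0297), a 1.23-fold higher signal with a 95% confidence interval of 1.08 to 1.41. This call was a narrow one. It was lost with median scaling in place of quantile normalization (0.32, adjusted p = 0.122), and without TG 2 (adjusted p = 0.0604), TG 5 (0.0543), WT 1 (0.0616) or WT 4 (0.0649).

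Ddit3 (ILMN_1349910) encodes CHOP, a C/EBP family factor that ATF4 induces and that acts in prolonged stress of the endoplasmic reticulum. Its values ran from 10.96 through a median of 11.22 to 11.37 in TG hearts. WT hearts ran from 10.49 through 10.70 to 10.93. All 6 TG values were above all 6 WT values, which held for 5.74% of all tested probes. The difference was 0.45 (SE 0.09, adjusted p = 0.00314), or 1.37-fold (1.19 to 1.57), and it passed the threshold under each alternative and with any array left out.

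Slc1a5 encodes ASCT2, an exchanger that carries glutamine and other neutral amino acids across the plasma membrane. Its bright probe (ILMN_1365597) read 7.21, 7.37 and 7.76 as lowest, median and highest in TG hearts. The WT values were 6.39, 6.65 and 6.93. There was no overlap between the groups. The difference was 0.76 (SE 0.11, adjusted p = 0.000339), or 1.69-fold (1.43 to 2.00). Slc1a5 is also on the list of higher genes that the study drew partly from these samples, so that list is not independent of this value. A second Slc1a5 probe (ILMN_1364555) was detected on no array, at 5.17 to 5.48 in TG and 5.32 to 5.55 in WT hearts, and so gives no measurement of the transcript.

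Slc3a2 encodes the 4F2 heavy chain (CD98), which pairs with a light chain such as the Slc7a5 product LAT1 to form a transporter for large neutral amino acids including leucine. Slc3a2 (ILMN_1372377) was 9.86, 9.96 and 10.35 in TG hearts, and 9.47, 9.67 and 9.73 in WT hearts. The groups did not overlap, and the difference was 0.40 (SE 0.09, adjusted p = 0.00503), or 1.32-fold (1.16 to 1.51). The Slc7a5 probe (ILMN_1365729) was detected in 2 TG hearts, TG 5 and TG 6, and in 0 WT hearts. Its values were 5.75, 5.90 and 6.68 in TG and 5.45, 5.55 and 5.84 in WT hearts, with 4 TG values above all WT values. TG 5 and TG 6 were the highest of all 12 hearts for both chains. Both groups were mostly not above background, so no fold is given for Slc7a5, and it was not called in a fit over all 22517 probes without the detection filter (adjusted p = 0.0604). Slc7a1, the gene of the cationic amino acid transporter CAT1 for arginine and lysine, was detected on no array (ILMN_1351408, 5.26 to 5.40 in TG and 5.22 to 5.42 in WT hearts).

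Of the enzymes, Phgdh catalyses the first step of serine synthesis from a glycolytic intermediate, Psat1 the next, and Shmt2 converts serine to glycine in mitochondria and so feeds one-carbon metabolism. Phgdh (ILMN_1357966) was detected in 5 TG hearts and 0 WT hearts, 1 array short of the filter. Its TG values were 5.92, 6.40 and 6.77 as lowest, median and highest. Its WT values were 5.49, 5.52 and 5.70, all below the TG values, with TG 3 the TG heart that was not detected. Phgdh was at least 1.29-fold higher in TG hearts against the lowest detected signal of the WT arrays (1.22-fold without TG 5). The fit without the filter called it higher (adjusted p = 0.00153), as it did 4.49% of all probes. Asns, the asparagine synthetase gene (ILMN_1368636), was detected only in TG 6. It read 5.44, 5.63 and 5.85 in TG and 5.07, 5.28 and 5.30 in WT hearts, again without overlap. Both groups were thus mostly not above background, and no difference is given. Shmt2 (ILMN_1368671) was 6.58, 6.71 and 6.995 in TG and 6.50, 6.68 and 6.91 in WT hearts, groups that overlapped almost fully. Its difference of 0.04 (SE 0.09, adjusted p = 0.772) had a 95% interval of -0.14 to 0.23. This interval lay below the measured differences of Ddit3 (0.45) and Slc3a2 (0.40), but it overlapped the interval of Slc3a2 (0.21 to 0.60). The genes were not tested against each other.

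The hearts did not rank alike for all genes. TG 4 was the lowest TG heart for Atf4, Ddit3, Slc1a5, Slc3a2 and Slc7a5, and the highest for Shmt2. The highest was TG 6 for Atf4 and Asns, TG 2 for Ddit3 and Slc1a5, and TG 5 for Slc3a2, Phgdh and Slc7a5.

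**Figure D2:**
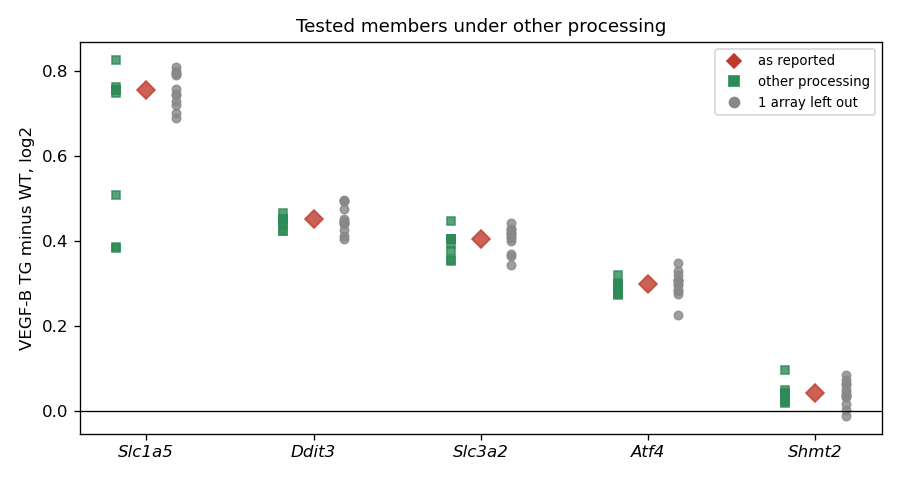
Difference of each tested gene of the group (log2, VEGF-B TG minus WT) as reported (diamonds), under each other way of processing the arrays (squares) and with each of the 12 arrays left out (circles). Slc1a5 ranged from 0.38 to 0.83 under other processing, lowest without background correction, while Ddit3, Slc3a2 and Atf4 moved little and Shmt2 lay around 0.

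The background correction set much of the size for dim probes. Without it the Slc1a5 difference was 0.38 (adjusted p = 0.000403) in place of 0.76, and among the pathway genes named below the differences of Cars1 (0.43), Slc7a7 (0.43), Atf3 (0.25), Chac1 (0.25), Sfxn1 (0.29), Psph (0.25), Slc38a3 (-0.22), Slc16a10 (-0.15), Aldh18a1 (0.16), Edem2 (0.14) and Sdf2l1 (0.12) also shrank by more than 1.5 times. Among these, the calls of Aldh18a1, Edem2 and Sdf2l1 were lost without background correction and the others were kept.

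The tested genes of eIF2 and its regulation did not pass in either direction (0 of 12, median difference 0.02). They cover eIF2 kinases, eIF2 subunits, the exchange factor eIF2B, the eIF2 phosphatase gene Ppp1r15a and Dnajc3. Ppp1r15a, looked up afterwards, had the largest difference (0.23, SE 0.09, adjusted p = 0.0850). Over all tested genes, 12.5% were called higher and 10.9% lower. The GCN2 gene Eif2ak4 was detected on no array and the kinase gene Eif2ak2 in 3 TG and 1 WT hearts, so neither was tested. Ppp1r15b and Eif2a were detected on no array either. The smallest p belonged to Eif2s2, the beta subunit of eIF2, at 12.06, 12.10 and 12.24 in TG and 11.90, 11.98 and 12.04 in WT hearts. Its 6 TG values lay above all WT values, with a difference of 0.15 (SE 0.06, adjusted p = 0.0717), and 6 of the alternatives called it (adjusted p of 0.0261 to 0.0497).

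Genes that work with ATF4 or are known to be induced by it rose in part. Of 18 tested, 5 were called higher (27.8%, beside 12.5% over all tested genes) and 0 lower, with a median difference of 0.11. With median scaling 3 were called higher, and over all alternatives the count ran from 1 to 6. At the adjusted p threshold of 0.01 only Atf3 was called. Atf3, a stress-induced factor of the same family, rose by 0.55 (SE 0.13, adjusted p = 0.00939), from a WT median of 6.33 (6.10 to 6.60) to a TG median of 6.82 (6.51 to 7.40). Chac1, which degrades glutathione, rose by 0.54 (SE 0.14, adjusted p = 0.0127), with a WT median of 6.18 (5.95 to 6.64) and a TG median of 6.84 (6.33 to 7.14). Atf5, an ATF4-related factor also translated under eIF2 phosphorylation, rose by 0.34 (SE 0.09, adjusted p = 0.0119). The ranges of Atf3, Chac1 and Atf5 each overlapped between groups in at least 1 heart, with Atf5 at 8.24 to 8.38 in TG and 7.66 to 8.25 in WT hearts. The other called genes were Nfe2l2 (0.28), the gene of the antioxidant regulator NRF2, and Aldh18a1 (0.31). The difference was positive in 13 of the 18, and the lowest was that of Nupr1, which was not called (-0.45, SE 0.21, adjusted p = 0.149). Trib3, a pseudokinase gene that ATF4 and CHOP induce, was chosen here after its values were seen. It was detected in 5 TG and 0 WT hearts, at 5.55, 6.13 and 6.65 in TG and 5.22, 5.30 and 5.63 in WT hearts, at least 1.10-fold higher (1.02-fold without TG 2), and was called in the fit without the filter (adjusted p = 0.00420). Cebpa, Jdp2, Sesn2, Fgf21, Gdf15, Stc2 and Slc7a11 of this list were also too dim to be tested. None of them was called in the fit without the filter (adjusted p of 0.356 to 0.992).

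Other genes of serine, glycine and one-carbon metabolism gave 2 called higher and 0 lower of 13 tested, a share of 15.4% beside the same 12.5%. Sfxn1, a mitochondrial serine carrier, was 7.49, 7.69 and 7.84 in TG and 6.95, 7.22 and 7.34 in WT hearts, without overlap (0.50, SE 0.08, adjusted p = 0.000670). Psph, the phosphatase of the last step of serine synthesis, was 7.68, 7.94 and 8.29 against 7.46, 7.56 and 7.71 (0.40, SE 0.09, adjusted p = 0.00525). Of the serine synthesis route only Psph was tested, since Phgdh was detected in 0 WT hearts and missed the filter, and Psat1 was not measured. The share of this list called higher was near that over all tested genes.

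Of 9 tested enzymes that make other amino acids or move amino groups, 1 was higher and 3 lower, against 10.9% of all tested genes called lower. Gpt, alanine aminotransferase, fell by 0.75 (SE 0.13, adjusted p = 0.000877), from 9.36, 9.40 and 9.69 in WT to 8.24, 8.74 and 9.13 in TG hearts. Got1, the cytosolic aspartate aminotransferase, differed by -0.22 (SE 0.06, adjusted p = 0.0132), and Glud1, glutamate dehydrogenase, by -0.26 (SE 0.08, adjusted p = 0.0429). With median scaling the calls of Got1 (adjusted p = 0.223) and Glud1 (0.190) were lost, and that of Glud1 also when any array but TG 3, WT 4 or WT 6 was left out (adjusted p of 0.0535 to 0.0879). Aldh18a1, which starts proline synthesis from glutamate, rose by 0.31 (SE 0.10, adjusted p = 0.0438). This call was lost without any of TG 1, TG 5, TG 6, WT 1, WT 2, WT 3, WT 4 and WT 6 (adjusted p of 0.0535 to 0.0961).

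Amino acid transporters outside the group gave 1 called higher (5.88%) and 3 lower (17.6%) of 17 tested, beside 12.5% and 10.9% over all tested genes, with a median difference of -0.07. Slc7a7, which encodes the light chain y+LAT1 that also pairs with the Slc3a2 product, was called higher, with a measured difference of 0.93 (SE 0.14, adjusted p = 0.000291). It was detected in 6 TG and 2 WT hearts, so it met the filter through the TG hearts alone and the other WT values were not above background, which leaves the size of the difference uncertain. It read 6.56, 6.65 and 7.52 in TG and 5.75, 5.89 and 6.03 in WT hearts, with TG 6 well above the other TG hearts, and without TG 6 the difference was 0.79 (adjusted p = 1.49e-05). Macrophage and leukocyte markers were also higher in TG hearts (4 of 4 tested, sums given above), and their part in this value was not tested. Slc38a3, a glutamine transporter, fell by 0.43 (SE 0.10, adjusted p = 0.00879), and the creatine transporter gene Slc6a8 fell by 0.40 (SE 0.07, adjusted p = 0.00136), with 10.02, 10.20 and 10.31 in TG and 10.39, 10.57 and 10.72 in WT hearts. Slc16a10, a transporter of aromatic amino acids, was called lower with a measured difference of -0.30 (SE 0.09, adjusted p = 0.0234), but it was detected in only 3 TG and 5 WT hearts and the size of its difference is uncertain too. With median scaling Slc38a3 (adjusted p = 0.0653) and Slc16a10 (0.0750) were not called. Slc38a2, a glutamine transporter gene known as a target of ATF4 and chosen here after its values were seen, was not called (-0.07, SE 0.11, adjusted p = 0.707).

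The list of aminoacyl-tRNA synthetases, which load amino acids onto their tRNAs, held more genes called higher than any other pathway list. It also includes Aimp1 and Eef1e1, which are not synthetases themselves and were not called. Of 19 tested, 7 were higher and 0 lower (36.8% higher, beside 12.5% over all tested genes), with a median difference of 0.15. Cars1, the cysteinyl-tRNA synthetase, rose by 0.84 (SE 0.08, adjusted p = 8.93e-06), from 6.60, 6.67 and 7.03 in WT to 7.47, 7.52 and 7.71 in TG hearts. Aars1, for alanine, rose by 0.45 (SE 0.08, adjusted p = 0.000873), from 9.89, 9.98 and 10.10 to 10.23, 10.43 and 10.69. Nars1, for asparagine, rose by 0.38 (SE 0.07, adjusted p = 0.00101), from 10.23, 10.36 and 10.54 to 10.68, 10.71 and 10.87. None of these 3 overlapped between groups, and neither did Gars1 (0.36) and Yars1 (0.34). Eprs1 (0.29) and Tars1 (0.29) were called with overlapping groups. Of the 12 that were not called, the intervals of Farsb (-0.19) and Vars1 (-0.15) lay below 0 before adjustment (adjusted p = 0.0560 and 0.130). Genes named here beside Cars1, Aars1 and Nars1 were chosen after their values were seen. The list itself, like the others, was chosen with earlier results of these data known.

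The promoters of this list were searched for the 8 bases that ATF4 and a C/EBP partner are known to bind, written TGATGNAA, on both strands of the RefSeq windows (GRCr8) that reach from 250 bases before each start to 50 after it. Of 33469 windows in the whole table, 3.98% held the letters. Counted by gene, as are all shares that follow, 4.16% of 27457 genes held them in at least 1 window and 0.827% held the stricter form TGATGCAA. Among 21 genes of the synthetase list with a window, 7 (33.3%) held them, each with the stricter form, namely Aars1, Cars1, Iars1, Mars1, Nars1, Tars1 and Yars1. The search was made after the calls were known, and a match is a description, not a binding site. The sequences are shown for the tested genes of this list that matched, for the called gene Chac1 and for Slc7a1, the only gene of the group whose window matched. They read 5′ to 3′ along the gene's own strand, with the 8 bases in capitals (TTGCATCA is TGATGCAA read from the other strand). Those before the start end at the start at the latest, and those after it have at most 10 bases on either side. The matches begin 112 bases before the start in Aars1 (chr19:55908340-55908407, plus strand of the genome, with another match 10 bases after the start), 14 in Nars1 (chr18:60275783-60275826, minus), 27 in Tars1 (chr2:62114803-62114859, minus), 24 in Iars1 (chr17:15193653-15193706, minus), 167 in Chac1 (chr3:126795934-126796001, plus) and 30 in Slc7a1 (chr12:11664428-11664487, plus). In Cars1 (chr1:208225335-208225362, minus) and Yars1 (chr5:146820191-146820212, plus) they lie 18 and 39 bases after the start.
Cars1: ggcgccgcggTTGCATCAgattctggaa
Aars1: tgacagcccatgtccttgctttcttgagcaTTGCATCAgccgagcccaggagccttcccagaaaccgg
Nars1: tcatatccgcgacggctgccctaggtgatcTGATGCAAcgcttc
Tars1: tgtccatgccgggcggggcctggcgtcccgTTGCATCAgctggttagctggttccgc
Yars1: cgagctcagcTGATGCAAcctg
Iars1: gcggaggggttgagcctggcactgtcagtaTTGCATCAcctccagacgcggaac
Chac1: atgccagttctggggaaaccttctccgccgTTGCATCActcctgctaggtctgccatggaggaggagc
Slc7a1: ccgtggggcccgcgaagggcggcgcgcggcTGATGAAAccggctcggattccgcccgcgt

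Set against the calls, 5 of the 6 tested synthetase genes with the letters in their window were higher in TG hearts, the exception being Iars1 (0.07, SE 0.07, adjusted p = 0.510). Of 11 tested genes of the list without them, which include Aimp1 and Eef1e1, 1 was higher, Eprs1. Gars1 and Rars1 had no window in the table. The median differences were 0.36 with and 0.04 without the letters, and no test was made of this contrast. Over all tested genes with a window the shares were closer, with 18 of 122 genes higher among those with the letters (14.8%) and 675 of 5510 among those without (12.3%). In the list of ATF4 partners and targets 6 of 23 genes matched (26.1%), in Jdp2, Nupr1, Trib3, Chac1, Fgf21 and Herpud1, of which 3 were tested and 1, Chac1, was called. Within the group itself 9 genes had a window (Slc1a5 had none), and 1 of the 9 matched (11.1%), that of the undetected Slc7a1. Of other letters searched on both strands, the endoplasmic reticulum stress element (CCAAT and CCACG with 9 bases of any kind between them) stood in a window of 0.076% of all genes and of 38.9% of 18 genes of the unfolded protein response list, and the cyclic AMP element TGACGTCA in a window of 2.00% of all genes. Neither stood in a window of the group. TGATGCAA is 1 form of TGATGNAA, and the other motifs are not forms of it.

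**Figure D3:**
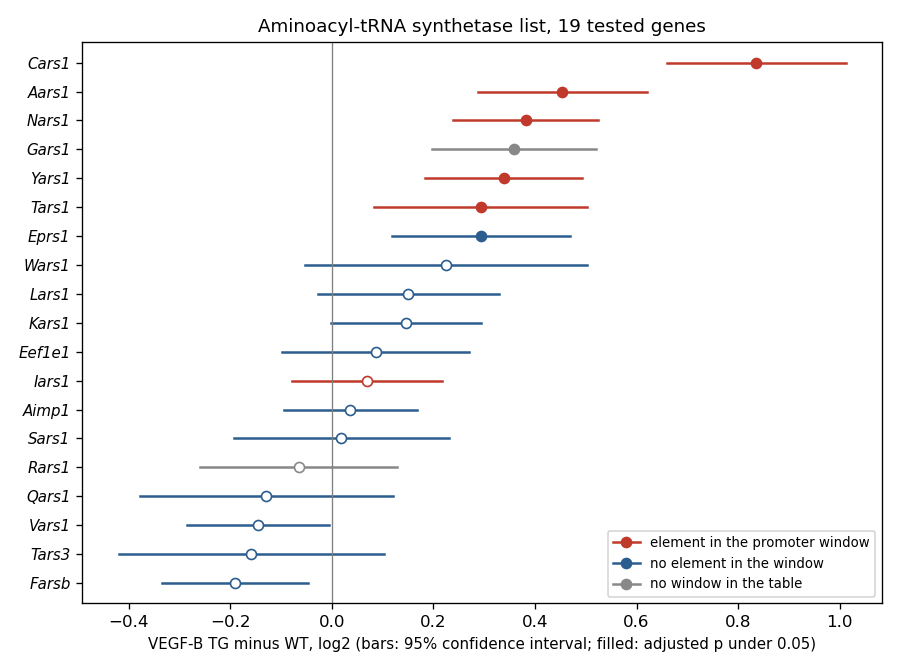
Difference (log2, VEGF-B TG minus WT) with its 95% confidence interval for the 19 tested genes of the aminoacyl-tRNA synthetase list, in order of size, filled where the adjusted p was under 0.05. Colours show whether the promoter window holds TGATGNAA, and the 5 called genes with it, from Cars1 at 0.84 to Tars1 at 0.29, lie in the upper part while Iars1 lies near 0.

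mTORC1 is the kinase complex that senses amino acids at the lysosome and is itself known to raise ATF4 translation. Genes of the complex and its sensors had 0 higher and 4 lower of 21 tested, beside 10.9% of all tested genes called lower, with a median difference of -0.13, and with median scaling 2 were called lower. Nprl2, a subunit of the GATOR1 complex that inhibits mTORC1, fell by 0.71 (SE 0.09, adjusted p = 8.53e-05), from 8.73, 8.90 and 9.17 in WT to 7.98, 8.27 and 8.38 in TG hearts. Sesn1, of the leucine-sensing sestrin family, fell by 0.39 (SE 0.08, adjusted p = 0.00287), from 11.57, 11.70 and 11.87 to 11.03, 11.35 and 11.45. Flcn, whose product folliculin acts on the Rag GTPases that recruit mTORC1, fell by 0.31 (SE 0.07, adjusted p = 0.00691), from 10.67, 10.81 and 11.02 to 10.39, 10.52 and 10.61. The groups did not overlap for any of the 3. Among the chosen pathway lists, 6 of 137 tested genes were lower without overlap. The share over all tested probes was not counted in this direction, so whether this separation is unusual in these data is not known. With median scaling Flcn was not called (adjusted p = 0.135). Lamtor5, a subunit of the lysosomal anchor Ragulator, was the other called gene (-0.25). Mtor itself was not called (-0.10, SE 0.06, adjusted p = 0.231), nor was the target gene Eif4ebp1, which ATF4 also induces (0.21, SE 0.10, adjusted p = 0.165), both chosen after their values were seen.

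The other branches of the unfolded protein response were higher in 4 and lower in 0 of 19 tested genes. The share higher was 21.1%, beside 12.5% over all tested genes, with a median difference of 0.18 and a positive difference in 17. Edem2, which directs misfolded glycoproteins to degradation, rose by 0.31 (SE 0.10, adjusted p = 0.0341). Sdf2l1 and Dnajb11, both partners of the chaperone BiP, rose too, Sdf2l1 by 0.27 (SE 0.08, adjusted p = 0.0264) and Dnajb11 by 0.24 (SE 0.07, adjusted p = 0.0250). Hsp90b1 was the other called gene (0.24), and Dnajb11 is also on the study's list of higher genes. These calls were weak. Edem2 was lost without TG 2, TG 3, TG 4, TG 6, WT 4 or WT 5 (adjusted p of 0.0514 to 0.0711), Sdf2l1 without TG 1, TG 2, TG 6, WT 3, WT 5 or WT 6 (0.0517 to 0.0575), and Dnajb11 without TG 1, TG 3, WT 1 or WT 4 (0.0503 to 0.0536). The BiP gene Hspa5 (0.14, SE 0.09, adjusted p = 0.261) and Xbp1 (0.05, SE 0.06, adjusted p = 0.618) were not called, as seen when they were looked up afterwards. Among mitochondrial stress proteins 0 of 11 were higher and 1 lower (9.09%, near the 10.9% over all tested genes). The latter was Dele1, whose product relays mitochondrial stress to an eIF2 kinase, with 10.76, 11.04 and 11.25 in TG and 11.20, 11.31 and 11.43 in WT hearts (-0.29, SE 0.08, adjusted p = 0.0167, and 0.0729 with median scaling).

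**Figure D4:**
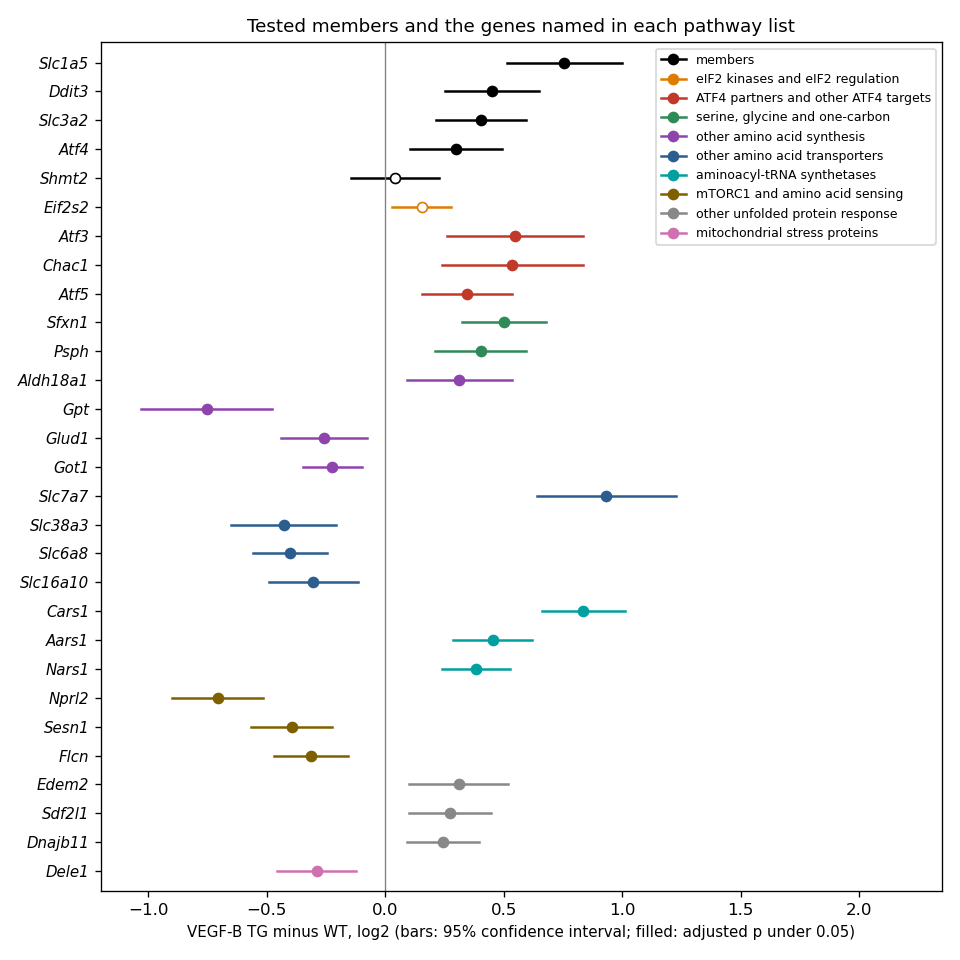
Difference (log2, VEGF-B TG minus WT) with its 95% confidence interval for the 5 tested genes of the group and for the genes named by a fixed rule in each pathway list, coloured by list and filled where the adjusted p was under 0.05. Among these named genes, synthetases, ATF4 partners and serine genes lie to the right of 0 and mTORC1 genes to the left. Those of transporters and other synthesis enzymes lie on both sides. The rule picks called genes, so this does not hold for whole lists. Over all tested genes the difference was positive in 14 of 19 of the synthetase list, 13 of 18 ATF4 partners, 9 of 13 serine genes and 4 of 21 mTORC1 genes.

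Over the 9 pathway lists together, 19 of 137 tested genes were higher (13.9%) and 11 were lower (8.03%), shares near those over all 6724 tested genes (12.5% and 10.9%). Calls higher in TG hearts thus stood in some of the lists and not in their sum.

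**Figure D5:**
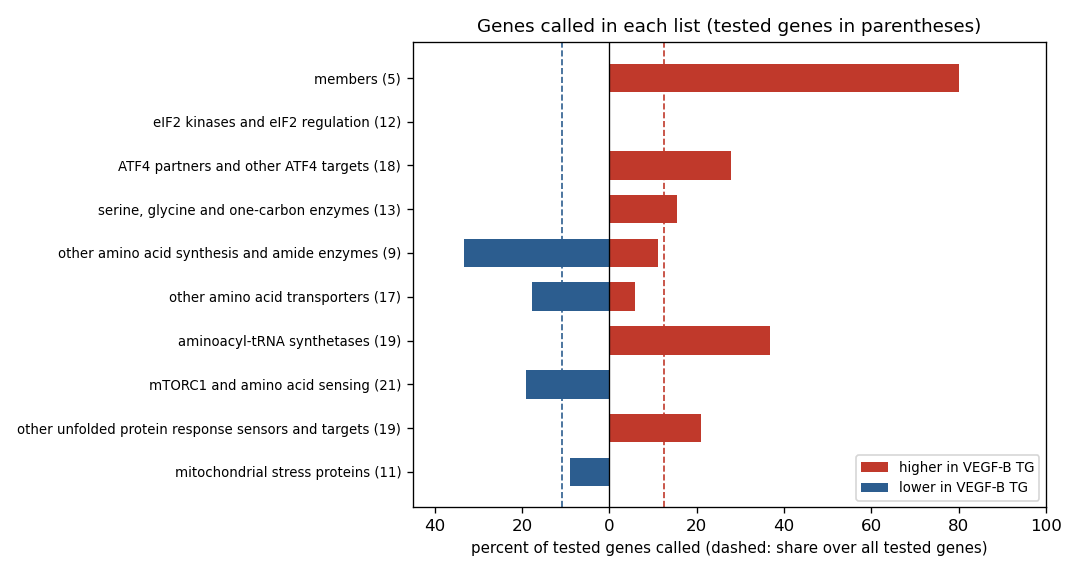
Percent of the tested genes of each list that were called higher (to the right) or lower (to the left) in VEGF-B TG hearts, with the number tested in parentheses. Dashed lines mark the shares over all tested genes, 12.5% and 10.9%, and the synthetase list reaches 36.8% higher while the eIF2 list has no call.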

How the data were processed

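Groups and replicate numbers came from the deposited sample titles, with 1 array per rat. One deposited table held bead intensity values, summarized by the authors in GenomeStudio and not normalized, each with a deposited detection p-value relative to negative control beads. Another table held the authors' log2 values, normalized by quantiles in Chipster, which lay within 0.00883 of quantile values computed here from the intensities. Versions of these programs are not given in the sources used here.

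The neqc function of limma 3.58.1 (R 4.3.3) inferred the background from the detection p-values, added an offset of 16, normalized by quantiles and took log2. Tested were the 9054 of 22517 probes whose detection p was below 0.05 on 6 or more of the 12 arrays, using lmFit and eBayes and no covariate, and p-values were adjusted over all of them by the Benjamini-Hochberg method (threshold 0.05). The study's methods likewise name quantile normalization, empirical Bayes statistics and this adjustment. A probe not detected in a group was given a bound against the mean of each array's lowest detected signal. Symbols came from the platform annotation (13787 probes with 1, 0 with several, 8730 with none), 13747 of them updated through the gene number. Each list used 1 probe per gene, the brightest. Promoter windows came from RefSeq. The fit was tested on simulated data. Python 3.11.15 and matplotlib 3.10.9 were used for summaries and figures.

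The members, the gene lists and the motif search were chosen with earlier results of these data known. Named in each pathway list were up to 3 genes called in each direction with the largest difference, or the gene with the smallest p where none was called, and 35 genes were named so beside the members. In each marker list the rule took the 2 largest called differences, which are given here as counts. Alternatives were no background correction, scaling to the median, normexp (offset 50), the deposited log2 table, cyclic loess, no filter, a strict filter (detection p below 0.01 on each of the 12 arrays), array weights, robust variances with a trend, replicate number as a block, each array left out, and an adjusted p threshold of 0.01. Labels state littermates but not which rats share a litter. No set test was made.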

Additional observations from a re-analysis of the deposited data

Results flagged for a closer look

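A heart is named here if its value stood apart from the rest of its group of 6, by Dixon's ratio of the nearest gap to the range at the 95% level. Of 90 groups examined, 2 for each probe of a member or named gene, 2 held such a value, where chance gives about 1 in 20. Slc7a7 read 7.52 in TG 6 and 6.56 to 6.88 in the other TG hearts. Icam2, an endothelial marker, read 11.33 in TG 6 and 10.93 to 11.03 in the others. Both are the same array, which also had the lowest array weight (0.623). Without it the differences remained 0.79 for Slc7a7 and 0.65 for Icam2.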

How the results depend on the processing

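Of 1981 probes called (1050 higher, 931 lower), median scaling left 1282 (833 higher, 449 lower, or 65.0% higher in place of 53.0%) and an adjusted p threshold of 0.01 left 1036. Pathway genes called higher went from 19 to 9 at the threshold of 0.01, and those called lower from 11 to 4 with median scaling and to 6 at the threshold of 0.01. Of the 10 member probes, 4 were called higher, 3 with median scaling, 3 with the strict filter, 3 at the threshold of 0.01 and 6 without a filter, which added Phgdh and Asns (detected on 5 and 1 of 12 arrays), and 0 were called lower under any alternative. With each array left out in turn, 1602 to 1976 probes, 3 to 4 member probes and 14 to 19 pathway genes higher and 9 to 11 lower were called. Over single probes, 1 difference changed sign, that of Shmt2, which ran from -0.010 (without TG 4) to 0.086 when 1 array was left out. Of the 908 alternative values of the 40 tested member and named probes, 827 kept direction and side of the threshold, 74 lost and 6 gained a call. The cause was not tested.

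Replicate numbers were not taken to pair the hearts, since the labels tie no animals together by number and not every pair correlated. Same-numbered arrays correlated at -0.145 to 0.227 in their deviations from the group means, 4 of 6 pairs over 0.1, and 3 of 6 TG arrays correlated best with their own number. With the number as a block 1928 probes were called, 4 of them members, and of the named genes Edem2 lost its call (adjusted p = 0.0579).

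Dim probes limit the rest. Phgdh, Asns and Slc7a5 lay at the detection limit, and without background correction the measured Phgdh difference was 0.40 in place of 0.79.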
